A study of Homo sapiens with 5 samples.

Results

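The long non-coding RNAs MALAT1, NEAT1, KCNQ1OT1, TUG1, OIP5-AS1 and MIR22HG were examined in PC9 cells that had survived gefitinib. They are 6 of the 27477 genes in the authors' deposited table. The rule asks for the rows whose symbol equals one of these names, and it found 4 of them. The rows of TUG1 and OIP5-AS1 carry no symbol and were matched by Ensembl ID through GENCODE release 29. PC9 is an established human lung cancer line with an activating EGFR mutation, and gefitinib is an EGFR kinase inhibitor. The 2 drug-tolerant (gefitinib DTC) libraries came from PC9 cells given 50 nM gefitinib for 6 days and then growth medium for 3 days. The 3 parental libraries came from PC9 cells in the same RPMI1680 medium with FBS, and the titles alone separate them, since the treatment text is the same on all 5 labels. The labels name 1 cell line and do not say whether libraries came from separate cultures, so a p-value here reflects the scatter among these 5 libraries alone, and that scatter may be technical.

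Long non-coding RNAs are transcripts that encode no known protein, and many of them act in the nucleus. NEAT1 is the scaffold of paraspeckles, nuclear bodies that hold RNA-binding proteins. MALAT1 lies close to it on chromosome 11 and gathers in nuclear speckles, where splicing factors are stored. KCNQ1OT1 is transcribed from the paternal chromosome inside the KCNQ1 gene and silences its imprinted neighbours in cis. TUG1 was first described in the retina of mice and has been tied to chromatin regulation. OIP5-AS1, known in other vertebrates as Cyrano, carries an extended pairing site for miR-7, and in mice it sets off the decay of that microRNA. MIR22HG is the host transcript of miR-22, a microRNA that represses several growth regulators.

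The sequences that set these RNAs apart are given in capitals and lower case, from GENCODE transcripts on GRCh38 and from RefSeq microRNAs on GRCh38.p14. The long NEAT1 isoform and MALAT1 are shown first because both end without a poly(A) tail. In their place a pair of U-rich motifs folds with an encoded A-rich tract into a triple helix, and capitals mark these parts, with T written for U. The ends are the last 103 bases of the long NEAT1 transcript (chr11:65445438-65445540, plus strand) and 103 bases of MALAT1 (chr11:65506014-65506116, plus strand).
NEAT1 3′ end: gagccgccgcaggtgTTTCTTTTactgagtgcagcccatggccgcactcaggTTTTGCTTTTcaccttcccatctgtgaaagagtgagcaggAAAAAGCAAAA
MALAT1 3′ end: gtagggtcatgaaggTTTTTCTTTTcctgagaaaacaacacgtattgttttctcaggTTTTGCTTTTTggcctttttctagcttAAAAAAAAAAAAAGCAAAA
The next 61 bases of MALAT1 (chr11:65506117-65506177, plus strand) hold the tRNA-like RNA that RNase P cuts away to make this end.
MALAT1 tRNA-like end: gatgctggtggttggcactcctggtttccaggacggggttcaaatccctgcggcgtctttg

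The microRNAs tied to OIP5-AS1 and MIR22HG are shown with the seed, bases 2 to 8, in capitals. The miR-7 site of OIP5-AS1 (chr15:41300574-41300599, plus strand) is shown with capitals for the bases that pair with miR-7, in runs of 14 and 8.
hsa-miR-22-3p: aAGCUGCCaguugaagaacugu
hsa-miR-22-5p: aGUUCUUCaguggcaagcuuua
hsa-miR-7-5p: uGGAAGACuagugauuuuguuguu
OIP5-AS1 miR-7 site: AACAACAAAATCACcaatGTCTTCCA
The 3 microRNAs have 3 different seeds. The longest OIP5-AS1 transcript, of 8829 nt, held 3 matches to the miR-7 seed, of which the printed one had the longest pairing outside the seed. KCNQ1OT1 held 6 such matches in 91667 nt, and the longest transcripts of MALAT1, NEAT1, TUG1 and MIR22HG held 0. A match is a description of the letters only. Mature microRNAs were not measured in these libraries.

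MALAT1 drew the most reads of the 6 RNAs in PC9 cells. In the authors' deposited table its mean level over the 5 libraries was 9229 scaled reads (reads divided by the library's size factor), or 513 per M reads. NEAT1 had a mean level of 2674 and TUG1 of 2470 scaled reads in the authors' deposited table. OIP5-AS1 followed with 891, KCNQ1OT1 with 298 and MIR22HG with 274 scaled reads in the authors' deposited table. These reads per gene grow with transcript length. By reads per gene, MALAT1 ranked 5th and NEAT1 ranked 9th among genes of long non-coding type. TUG1 was at rank 13, OIP5-AS1 at rank 25, KCNQ1OT1 at rank 70 and MIR22HG at rank 79. The 4 genes above MALAT1 were FP236383.2, FP671120.3, FP236383.3 and FP671120.4, clone-named rows on chromosome 21 of 923 nt each. They start at bases 8393419, 8210384, 8437629 and 8254592 of that chromosome, in the order named. Their mean levels ran from 156043 to 260625 scaled reads, and their reads may be shared. Whether these reads come from long non-coding RNAs was not tested. The ranks therefore count rows annotated as long non-coding, which need not be separate RNAs or RNAs of that type.

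Levels of different genes cannot be compared without regard to length, and the order changed on a scale per length. That scale does not correct for capture by the mRNA kit, which was not tested for RNAs without a poly(A) tail, such as MALAT1. Per kb of annotated exons the mean level was 1045 scaled reads for MALAT1 and 243 for TUG1. It was 117 for NEAT1, 91.8 for MIR22HG, 70.3 for OIP5-AS1 and 3.25 for KCNQ1OT1. KCNQ1OT1 is annotated as a single unspliced transcript of 91667 nt, so its reads are spread over a far longer stretch than those of the others. The place of NEAT1 in this order depends on its isoform. If every NEAT1 read came from the short isoform of 3441 nt, which ends in a poly(A) tail, its level would be 777 scaled reads per kb and it would stand above TUG1. The table gives no level per library at these depths, so the spread between libraries is not known and neighbours in this order cannot be said to differ.

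**Figure D1:**
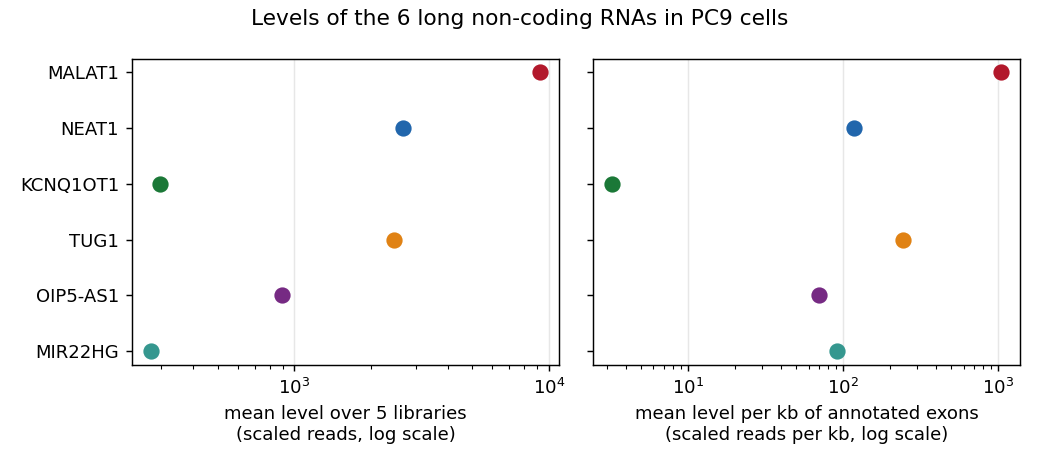
Mean level over the 5 libraries (left, scaled reads) and the same per kb of annotated exons (right), both on log scales, 1 point for each RNA. MALAT1 leads on both scales, at 9229 scaled reads and 1045 per kb, and KCNQ1OT1 is far below the others per kb, at 3.25.

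None of the 6 RNAs passed the test between drug-tolerant and parental cells. The authors' deposited table called 84 of the 15223 genes with an adjusted p, 0.552%, at a DESeq2 adjusted p under 0.05. Of these, 40 genes (0.263%) were higher and 44 genes (0.289%) were lower in drug-tolerant cells. At such shares a count of 0 among 6 genes is near the background and is no result about these RNAs. Their adjusted p-values in the authors' deposited table ran from 0.507 to 0.932 (DESeq2), and 0 of the 6 had an unadjusted p under 0.05. The values were split evenly in sign, with 3 above 0 and 3 below, and all 6 of the 95% intervals spanned 0. The median log2 fold change of the 6 was 0.10, beside -0.02 over all tested genes. Fewer cells of a type and less RNA per cell cannot be told apart in such bulk libraries. A log2 fold change here is drug-tolerant over parental, is moderated towards 0 by the authors' fit and carries the authors' standard error. Group means are estimates from the mean level and this fold change.

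MALAT1 (ENSG00000251562, chr11:65497688-65506516, plus strand, a lincRNA with 17 annotated transcripts) had the largest value of the 6. Its estimated mean was 11642 scaled reads in drug-tolerant cells and 7620 scaled reads in parental cells. The log2 fold change in the authors' deposited table was 0.61 ± 0.38 (SE; 2 and 3 libraries), with an adjusted p of 0.507 (DESeq2). This is 1.53-fold higher, with a 95% interval from 0.917-fold to 2.54-fold. MALAT1 also had the largest standard error of the 6. A log2 fold change of about 1.37 would have been needed for a call at that error, taking the weakest score among called genes as the limit. Of the tested genes, 94.7% had a lower log2 fold change than MALAT1.

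NEAT1 (ENSG00000245532, chr11:65422774-65445540, plus strand, a lincRNA with 8 annotated transcripts) lay on the other side of 0. Its estimated mean was 2452 scaled reads in drug-tolerant cells and 2822 scaled reads in parental cells. The authors' deposited table placed it at -0.20 ± 0.21 (SE) on the log2 fold change scale, at an adjusted p of 0.642 (DESeq2). Its standard error was the smallest of the 6, and the 95% interval ran from 0.652-fold to 1.16-fold. The whole interval lies within a 2-fold difference in either direction. Gene-level values cannot separate the long isoform, which builds paraspeckles, from the short one.

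TUG1 (ENSG00000253352, chr22:30969245-30979395, plus strand, a bidirectional promoter lncRNA with 20 annotated transcripts) had an estimated mean of 2730 scaled reads in drug-tolerant cells and 2297 scaled reads in parental cells. In the authors' deposited table the log2 fold change was 0.25 ± 0.29 (SE) and the adjusted p 0.677 (DESeq2). The 95% interval ran from 0.802-fold to 1.76-fold.

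KCNQ1OT1 (ENSG00000269821, chr11:2608328-2699994, minus strand, antisense to KCNQ1) had an estimated mean of 329 scaled reads in drug-tolerant cells and 277 scaled reads in parental cells. The log2 fold change in the authors' deposited table was 0.25 ± 0.32 (SE), with an adjusted p of 0.699 (DESeq2). Its 95% interval, from 0.774-fold to 1.83-fold, was close to that of TUG1.

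OIP5-AS1 (ENSG00000247556, chr15:41283990-41309737, plus strand, 10 annotated transcripts) was nearest to 0 of the 6. It had an estimated mean of 873 scaled reads in drug-tolerant cells and 904 scaled reads in parental cells. The authors' deposited table placed it at -0.05 ± 0.25 (SE) on the log2 fold change scale, at an adjusted p of 0.932 (DESeq2), with a 95% interval from 0.684-fold to 1.36-fold.

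MIR22HG (ENSG00000186594, chr17:1711493-1717174, minus strand, a lincRNA with 19 annotated transcripts) was the shortest of the 6, with a longest transcript of 2626 nt. Its estimated mean was 265 scaled reads in drug-tolerant cells and 280 scaled reads in parental cells. In the authors' deposited table its log2 fold change was -0.08 ± 0.29 (SE) and its adjusted p 0.902 (DESeq2). The 95% interval ran from 0.634-fold to 1.41-fold.

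**Figure D2:**
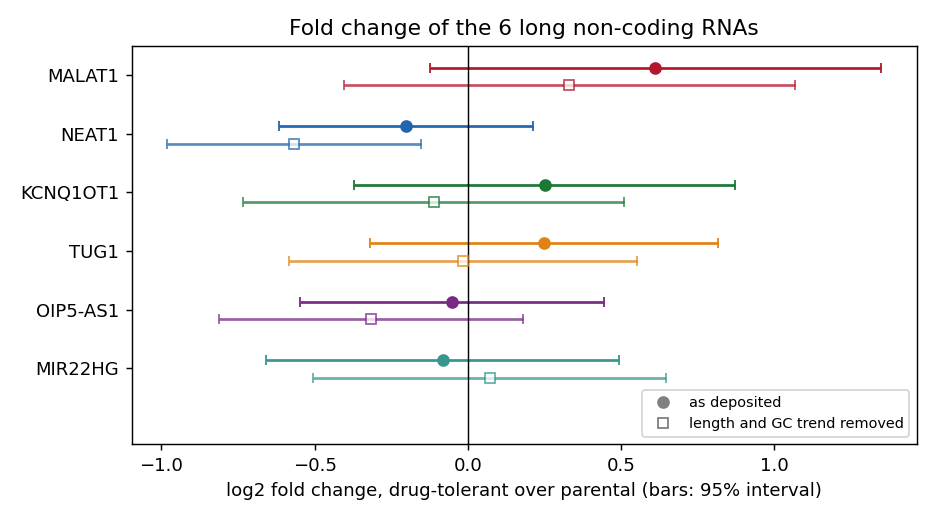
Log2 fold change of each RNA, drug-tolerant over parental, with its 95% interval, as deposited (filled circles) and once the length and GC trend had been taken out (open squares). All 6 deposited intervals span 0, and after the trend the NEAT1 interval lies below 0, at an adjusted p of 0.245.

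**Figure D3:**
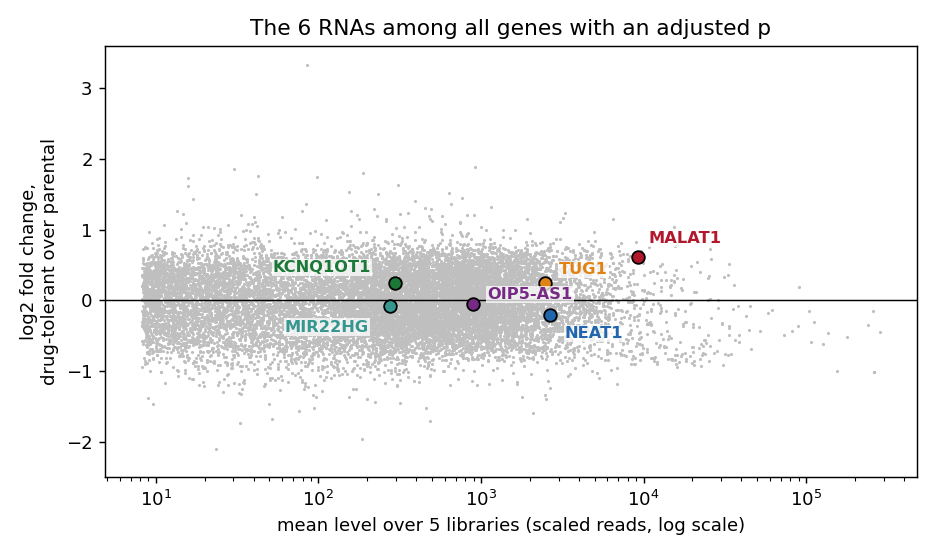
Log2 fold change, drug-tolerant over parental, against mean level (scaled reads, log scale) for the 15223 genes with an adjusted p (grey) and the 6 RNAs (coloured). The 6 RNAs lie between -0.20 and 0.61, inside the cloud of genes of similar level.

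The fold changes of this table followed transcript length, and 5 of the 6 RNAs are long. MIR22HG, at 2626 nt, is shorter than the median tested gene, at 3285 nt. Over protein-coding genes in 10 groups by length, the median log2 fold change was -0.49 in the group of the shortest transcripts (median length 1254 nt) and 0.39 in that of the longest (median 9620 nt). A trend with length and GC content, fitted on 12461 protein-coding genes, gave 0.28 at the length and GC content of MALAT1 and 0.36 for NEAT1 and KCNQ1OT1. It gave 0.27 for TUG1 and for OIP5-AS1, and -0.15 for MIR22HG. The transcripts of NEAT1 and KCNQ1OT1 are longer than 16164 nt, where the trend ended, and the trend was held at its end for them.

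With this trend removed, MALAT1 was at 0.33, TUG1 at -0.02, KCNQ1OT1 at -0.11 and MIR22HG at 0.07 on the log2 scale. OIP5-AS1 was at -0.32 and NEAT1 at -0.57, the value farthest from 0 of the 6. The unadjusted p of NEAT1 was then 0.00745 and its adjusted p 0.245, so it was not called (normal test on the deposited standard error, Benjamini-Hochberg over all genes). On that scale 87 of 15160 genes were called, 0.574%, 53 higher and 34 lower in drug-tolerant cells. With NEAT1 taken at its short isoform the value was -0.16, with an adjusted p of 0.861. The distance of NEAT1 from the trend therefore depends on which isoform gave the reads. KCNQ1OT1, TUG1 and MIR22HG changed sign when the trend was removed, so none of these 3 has a direction that holds on both scales.

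**Figure D4:**
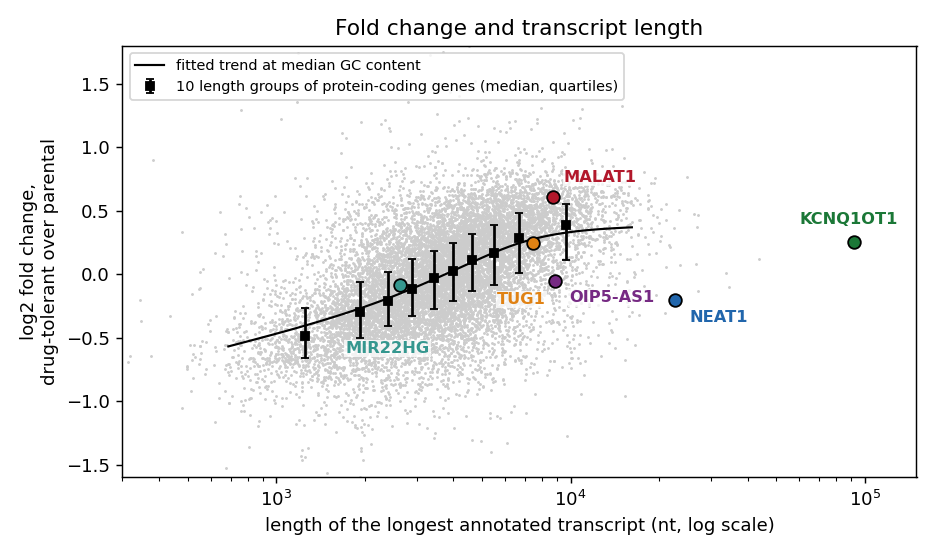
Log2 fold change, drug-tolerant over parental, against the length of the longest annotated transcript (log scale). Grey points are protein-coding genes, black squares are 10 length groups with quartiles, and the line is the fitted trend. MALAT1 (0.61) is above the line, TUG1 (0.25) is close to it, and OIP5-AS1 (-0.05) and NEAT1 (-0.20) are below it.

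Reads per library could be recovered for the 12705 genes with a mean level under 10, though not for the 6 RNAs themselves, and they show how the libraries differ. Depth was about 20.4 and 14.2 M counted reads in drug-tolerant libraries a and b, and 21.4, 18.3 and 17.3 M in parental libraries a, b and c. Low-level protein-coding genes with long transcripts (at least 4000 nt), were set against those with short ones (at most 2000 nt), each as a share of the mean library. The ratio of long to short was 1.29 and 1.13 in drug-tolerant a and b, against 1.29, 0.821 and 0.795 in parental a, b and c. Parental a thus stood with both drug-tolerant libraries, apart from parental b and c. The split was not limited to long transcripts. The summed level of all 12705 low-level genes, relative to the mean of the 5 libraries, was 1.15 and 1.07 in drug-tolerant a and b, against 1.21, 0.774 and 0.785 in parental a, b and c. For low-level lincRNAs, the type of MALAT1, NEAT1 and MIR22HG, it was narrower, at 1.05 and 0.986 in drug-tolerant a and b, against 1.11, 0.927 and 0.928 in parental a, b and c. It was wider in 180 low-level long non-coding genes with a transcript of at least 4000 nt, which held 2696 reads. Their summed level was 1.26 and 1.15 in drug-tolerant a and b. In parental a, b and c it was 1.41, 0.649 and 0.537. For 438 sense-intronic genes, a type with a median length of 866 nt among tested genes, it was 1.28 and 1.16 in drug-tolerant a and b, against 1.32, 0.61 and 0.632 in parental a, b and c. How far the fold changes of the 6 RNAs rest on this split of the parental libraries was not tested, since the 6 have no value per library. The kit was one for mRNA, and the capture of RNAs without a poly(A) tail was not tested.

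**Figure D5:**
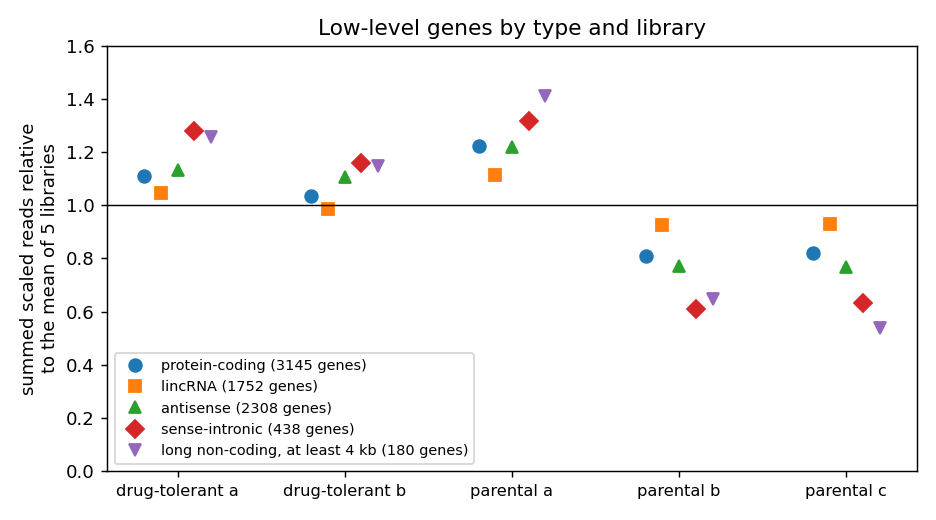
Summed scaled reads of genes with a mean level under 10, by gene type and library, relative to the mean of the 5 libraries. Long non-coding genes with a transcript of at least 4 kb were at 1.26 and 1.15 in the drug-tolerant libraries and at 1.41, 0.649 and 0.537 in the parental ones, so parental a lies with the drug-tolerant libraries.

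The 6 RNAs were set beside all genes of long non-coding type, a set that includes them. Of 1602 such genes with an adjusted p, 2 were called higher and 6 lower in drug-tolerant cells, with a median log2 fold change of -0.04. Of the 6 lower, 4 are clone-named rows whose reads may be shared, so the 6 need not be separate RNAs. Whether the reads of these 4 rows come from long non-coding RNAs was not tested. Over all 15223 tested genes 0.552% were called, so these counts are near the background and are no result about this type. Long non-coding genes with a longest transcript of at least 5000 nt, the class that holds 5 of the 6 RNAs, had a median of 0.22. Of these 105 genes 74 had a positive value and 0 were called. The called genes in the authors' deposited table were OLMALINC (-1.52 ± 0.32 SE), SFTA1P (-1.25 ± 0.32), LINC02474 (1.03 ± 0.23), LINC02582 (1.62 ± 0.41, listed as LOC100505817) and the 4 clone-named rows that rank above MALAT1. With the score centred on its median and divided by its robust SD, 0 of these 8 were called. With the length and GC trend removed, OLMALINC, LINC02474 and LINC02582 were called and the other 5 were not. The log2 fold changes of those rows were -1.01 for FP236383.2, FP671120.3 and FP236383.3 in the authors' deposited table, with near-identical mean levels in these 3, so their reads may be shared.

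Proteins that work with NEAT1 gave no call. Over all tested genes 0.552% were called, so counts of 0 here, in the lists below and among neighbouring genes are near the background. Such counts are no result about the genes concerned. Of the 17 paraspeckle proteins, all with an adjusted p, 0 were called higher and 0 lower, 10 values were above 0 and 7 below, and the median log2 fold change was 0.03, or -0.04 after the length trend was removed. The smallest adjusted p was that of HNRNPA1, a splicing regulator, at -0.55 ± 0.28 (SE; adjusted p 0.461, DESeq2, the authors' deposited table). SMARCA4, the motor subunit of SWI/SNF remodelling complexes, was at 0.36 ± 0.22 and DAZAP1, an RNA-binding protein, at -0.37 ± 0.27 in the authors' deposited table. RBM14, needed for paraspeckle assembly, was at 0.20 ± 0.21 in the authors' deposited table. SFPQ and NONO, the core paraspeckle pair, were at 0.17 ± 0.22 and -0.07 ± 0.21 in the authors' deposited table, and they are named with their values known, outside the rule for named genes.

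The nuclear speckle proteins that surround MALAT1 gave no call either. Of 24 speckle and SR proteins 0 were called, 15 had a positive value, and the median log2 fold change was 0.12, or 0.13 after the trend was removed. SRRM2 and SON, the scaffolds of nuclear speckles, were at 0.83 ± 0.39 (SE) and 0.74 ± 0.40 in the authors' deposited table, with adjusted p-values of 0.452 and 0.471 (DESeq2). Both come from transcripts of similar length to MALAT1, 9353 nt for SRRM2 and 8813 nt for SON. With the length and GC trend removed, SRRM2 was at 0.50 and SON at 0.43. CLK4, a kinase of SR proteins, was at 0.69 ± 0.34 and ACIN1 at 0.45 ± 0.26 in the authors' deposited table.

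Factors that make or guard the 3′ end of MALAT1 were 13 in number, and 0 were called. This list holds the subunits of RNase P, which cuts before the tRNA-like end, RNase Z (ELAC2), which trims it, and METTL16, which binds the triple helix. The median log2 fold change was -0.26, and -0.01 after the length trend was removed. POP1 was at 0.48 ± 0.28 (SE), ELAC2 at 0.33 ± 0.22, METTL16 at 0.30 ± 0.21 and POP7 at -0.51 ± 0.35 in the authors' deposited table.

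Nuclear exosome subunits and their adaptors, which degrade many nuclear transcripts, numbered 20 with 0 called. The median log2 fold change was -0.29, and 0.0006 after the trend was removed. EXOSC5, an exosome subunit, was at -0.62 ± 0.31 (SE), RBM7, an adaptor subunit, at -0.48 ± 0.24, and C1D, an exosome cofactor, at -0.59 ± 0.33 in the authors' deposited table. MTREX, the exosome helicase, was at 0.56 ± 0.31 in the authors' deposited table.

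The KCNQ1 imprinted domain, which holds the genes that KCNQ1OT1 silences and some neighbours, gave no call. Of the 13 listed, all but CDKN1C had a row (12 genes), and 6 had an adjusted p. Of these 6, 0 were called, and their median log2 fold change was -0.22, or -0.02 after the trend was removed. That median does not separate silenced genes from neighbours, and CDKN1C could not be assessed. KCNQ1, the potassium channel gene inside which KCNQ1OT1 lies, had 0 and 1 reads in drug-tolerant libraries a and b, against 0, 0 and 1 in parental a, b and c. H19 had 1 and 0 reads in drug-tolerant a and b, against 2, 0 and 2 in parental a, b and c. IGF2 had 2 and 1 reads in drug-tolerant a and b, against 0, 0 and 2 in parental a, b and c. Differences at such counts were not detectable at this depth. CD81, a membrane tetraspanin, was at -0.56 ± 0.31 (SE), SLC22A18 at -0.40 ± 0.32, TSSC4 at -0.29 ± 0.33 and CARS1 at 0.16 ± 0.23 in the authors' deposited table.

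Chromatin enzymes that KCNQ1OT1 is reported to recruit, with other PRC2 subunits, gave 0 calls among 14 genes and a median log2 fold change of 0.05, or 0.08 after the trend was removed. DNMT1, the maintenance DNA methyltransferase, was at 0.63 ± 0.34 (SE), EHMT1 at 0.44 ± 0.26 and EHMT2 at 0.28 ± 0.23 in the authors' deposited table. EHMT1 and EHMT2 encode the histone methyltransferases GLP and G9a. RBBP7, a histone-binding subunit of PRC2, was at -0.40 ± 0.26 in the authors' deposited table.

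Genes tied to OIP5-AS1 and miR-22 also stayed uncalled. ELAVL1, which binds OIP5-AS1 in HeLa cells, was at -0.10 ± 0.26 (SE) in the authors' deposited table. Of 10 reported miR-22 targets 0 were called and 8 had a positive value, with a median log2 fold change of 0.30. These are long transcripts, of median length 7034.5 nt, and the median was 0.06 after the trend was removed. HDAC4, a histone deacetylase, was at 0.59 ± 0.35, CDK6, a cell cycle kinase, at 0.52 ± 0.39, TET2, a DNA demethylase, at 0.47 ± 0.40 and MYCBP at -0.58 ± 0.32 in the authors' deposited table.

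MIR22HG was set beside other microRNA host genes, of which 15 of 22 had an adjusted p and 0 were called. Their median log2 fold change was 0.17, or 0.06 after the trend was removed, and as deposited it was -0.11 for the 9 with a mean level of at least 50. MIR4458HG was at -0.74 ± 0.35 (SE), MIR23AHG at -0.76 ± 0.38, MIR210HG at -0.68 ± 0.37 and MIR31HG at 0.74 ± 0.41 in the authors' deposited table. MIR155HG had 0 and 0 reads in drug-tolerant libraries a and b, against 3, 4 and 1 in parental a, b and c, and it had no adjusted p. The host gene of miR-34a, a p53 target, had 10 and 5 reads in drug-tolerant a and b, against 7, 5 and 2 in parental a, b and c. Divided by size factors these were 8.82 and 6.34, against 5.88, 4.91 and 2.08, and this gene too had no adjusted p.

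A further list, of genes first described as long non-coding RNAs, had 28 genes with an adjusted p of 35 listed, with 0 called and a median log2 fold change of -0.14, or -0.06 after the trend was removed. GENCODE release 29 types TINCR and LINC00998 of this list as protein-coding. TINCR, known from epidermal differentiation, had the smallest adjusted p of the list, at 0.82 ± 0.31 (SE) with an adjusted p of 0.299 (DESeq2, the authors' deposited table). LINC00998 was at -0.79 ± 0.33, LINC00963 at -0.79 ± 0.34 and LUCAT1, a stress-responsive RNA, at 0.62 ± 0.31 in the authors' deposited table. MIAT, another nuclear RNA, had 5 and 6 reads in drug-tolerant libraries a and b, against 8, 5 and 5 in parental a, b and c, and the groups overlapped. PURPL, a p53 target listed as LINC01021, had 13 and 4 reads in drug-tolerant a and b, against 9, 4 and 3 in parental a, b and c, which also overlapped.

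The genes next to the 6 RNAs were read from the same annotation, and 0 of them were called. AP000769.1, a transcribed pseudogene that lies between NEAT1 and MALAT1, was at -0.87 ± 0.36 (SE) with an adjusted p of 0.393 (DESeq2, the authors' deposited table). FRMD8, on the other side of NEAT1, was at 0.04 ± 0.25 in the authors' deposited table. MORC2, which starts 947 nt from TUG1 on the other strand, was at 0.45 ± 0.29 in the authors' deposited table. SMTN, on the other side of TUG1, was at -0.11 ± 0.22 in the authors' deposited table.

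OIP5 overlaps the end of OIP5-AS1 on the other strand and was at 0.14 ± 0.33 (SE) in the authors' deposited table. CHP1 and NUSAP1, the next genes around OIP5-AS1, were at -0.39 ± 0.26 and -0.41 ± 0.25 in the authors' deposited table. WDR81 overlaps the start of MIR22HG on the other strand and was at 0.62 ± 0.31, with an adjusted p of 0.461 (DESeq2, the authors' deposited table). TLCD2 and SERPINF2, the next genes around MIR22HG, were at -0.61 ± 0.34 and -0.58 ± 0.38 in the authors' deposited table. The kit keeps the strand, but the strand setting of the read counting is not given in the sources used here, so reads of OIP5-AS1, MIR22HG and KCNQ1OT1 cannot be told apart with certainty from those of their overlapping partners.

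Markers of the cell line were checked beside these results. All 8 epithelial markers had an adjusted p, with a summed mean level of 145507 scaled reads, and 0 were called. KRT7 was at -0.60 ± 0.29 (SE), KRT19 at -0.56 ± 0.29, EGFR at 0.59 ± 0.38 and CDH1 at 0.40 ± 0.27 in the authors' deposited table. The summed mean level was 163 scaled reads for the fibroblast markers, of which 2 of 6 had a row, and 30.7 for the haematopoietic ones, of which 3 of 6 had a row. Endothelial markers, of which 3 of 5 had a row, summed to 1875 scaled reads, of which PECAM1 gave 1616 and CDH5 253. PECAM1 was at 0.57 ± 0.26, with an adjusted p of 0.442 (DESeq2, the authors' deposited table), and VWF, another endothelial marker, had 10 and 3 reads in drug-tolerant libraries a and b, against 11, 4 and 7 in parental a, b and c. Any part of other cells in the values of the 6 RNAs was not tested.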

How the data were processed

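RNA of PC9 cells was measured in 2 gefitinib drug-tolerant and 3 parental libraries, made with TriZol and a stranded mRNA kit per the labels' protocols. FastQC, STAR, DESeq2 and the build hg38 were used per the submitters' processing notes. Neither the annotation nor the counting tool is given in the sources used here. Deposited by the authors were mean levels as a signal (reads over size factors, averaged over all libraries), fold changes with standard errors on the log2 scale, a Wald score, and p-values with adjusted p-values. The Wald score equalled the deposited ratio of log2 fold change and standard error within 1.8e-07, and the adjusted p-values a Benjamini-Hochberg adjustment within 2e-05.

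The table holds no value per library, so no count model could be fitted. A gene is called at the authors' adjusted p under 0.05, and 95% intervals use the deposited standard errors. All 12705 mean levels under 10 were resolved into whole reads per library in 1 way each (tolerance 1.5e-09, tested on simulated data). Of 951 genes with reads in 1 library only, the fold change was positive in 2 libraries and negative in 3, which sets positive as higher in drug-tolerant cells. Libraries a, b and c are ordered by size factor, and which replicate each one is remains unknown. Reads printed per library for a gene are whole reads, not divided by the size factor unless stated. Size factors times the summed mean level, 18 M, give the depths, and counts cover counting error only.

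Lengths and GC content were taken from the longest GENCODE 29 transcript. The trend used natural cubic splines with 5 and 4 degrees of freedom (patsy 1.0.2, statsmodels 0.14.6, Python 3.11.15). Of each list, every called gene and up to 4 further genes (mean level at least 10, lowest adjusted p first) are named, and 196 of 198 list names matched. The nearest genes around each RNA are also named, except for an item that is not reported here. Members and lists were chosen with earlier results of these data known. Alternatives were another threshold, filter or score scale, centring, and removal of the trend.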

Additional observations from a re-analysis of the deposited data

How the results depend on the processing

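At each of the 8 alternatives to the authors' adjusted p under 0.05, 0 of the 6 RNAs and 0 of the list genes were called. The share called over all tested genes ran from 0.00657% to 0.722% at these settings, so counts of 0 are near the background. Once length and GC were accounted for, the lowest adjusted p was 0.245 among the 6 RNAs, for NEAT1, and 0.105 among the list genes, for LINC00963. Of 43 values of the 6 RNAs under alternatives, 37 kept their sign. This count says little, because a change of threshold or filter leaves the fold change itself as deposited and cannot turn its sign. All reversals came with the trend removed. Removing the trend turned KCNQ1OT1 to -0.11, TUG1 to -0.0168 and MIR22HG to 0.0711. With mean level added to the trend, an alternative chosen after seeing the data, KCNQ1OT1 was at -0.11, TUG1 at -0.00329 and MIR22HG at 0.0766. Over the whole table the count of 84 called genes, 40 higher and 44 lower, became 39 (25 and 14) at a threshold of 0.01 and 1 (1 and 0) with the score centred on its median and divided by its robust SD. It was 87 (53 and 34) with the trend removed, of which 44 were among the 84, and 60 (34 and 26) without the filter on low levels. Centring on the median gave 82 (44 and 38). The precision is limited by 2 and 3 libraries. No paired analysis was possible because no value per library is given for the 6 RNAs, and leaving out each replicate and edgeR could not be run for the same reason.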
